A study of Mus musculus with 8 samples.

Results

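Cell cycle and mitosis genes were examined in mouse hearts under adrenergic stress, in wild type animals and in animals with a mutated GATA4. The group was defined by name: 45 genes, of which 31 act in mitosis and cell division and 14 in DNA replication. The names were chosen with earlier results of these data known. Counts of members set beside all genes therefore describe the group and do not test it. A gene was read from a probe set annotated with its symbol alone, and where several qualified, the brightest on average was taken. This gave 44 measured genes of 19938 in the data set, 30 for mitosis and 14 for replication. Ccnb1, the gene of cyclin B1, had no such probe set in the annotation used here and was not analysed.

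RNA came from hearts of C57Bl6 mice at 9 weeks of age, each hybridised to its own array. One genotype was wild type (WT), and the other was homozygous for the S105A mutation of GATA4, in which alanine replaces a serine of this cardiac transcription factor. Both genotypes served as controls or received PE, an adrenergic stimulus, for 5 days from a subcutaneous osmotic pump (100 mg/kg/day). Each of the 4 groups held 2 animals. Hearts 1 and 2 were the WT controls, hearts 3 and 4 WT with PE, hearts 5 and 6 the S105A controls and hearts 7 and 8 S105A with PE, and an array carries the number of its heart. The labels spell PE out as pseudoephedrine and do not settle whether another agonist of that abbreviation was meant. They call the controls untreated in the titles but name saline in the protocol, and they give the tissue both as whole heart and as ventricle. How the S105A allele was made is not stated. The mean log2 level of 8 cardiomyocyte markers lay between 13.2 and 13.5 on every array, so heart muscle RNA was present throughout, and array medians over all genes lay between 6.73 and 6.80. With 2 arrays per group the number of arrays limits the precision.

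In a dividing cell, E2F transcription factors switch on the replication genes at the passage from G1 into S phase, and a later programme switches on the mitosis genes in G2. That programme works through the MuvB complex, which binds a short promoter element called the CHR together with B-MYB and FOXM1, often beside CCAAT boxes bound by NF-Y. In the adult mouse heart most muscle cells have left the cell cycle, whereas fibroblasts, macrophages and endothelial cells can still divide, and stressed heart muscle cells can also replicate DNA without dividing.

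The promoters of 7 members are printed here as examples of the letters of the replication and mitosis programmes by which the expression values are grouped. They do not stand for all members, whose counts follow. Each line gives the 160 bases before the annotated start from RefSeq on GRCm38.p6, on the strand of the gene. Capitals mark the letters searched on both strands: the CHR letters (TTTGAA and the variants TTCGAA and TTTAAA), the letters CCAAT, and the E2F letters (TTTGGCGC with the variants TTTCGCGC and TTTCCCGC and TTTGCCGC). The positions are chr7:135716380-135716539 (minus strand) for Mki67, chr11:99024190-99024349 (minus) for Top2a, chr10:69352913-69353072 (minus) for Cdk1, chr19:37376222-37376381 (plus) for Kif11 and chr2:164769769-164769928 (plus) for Ube2c. The replication genes lie at chr8:75109349-75109508 (plus) for Mcm5 and chr1:128359706-128359865 (minus) for Mcm6.
Mki67: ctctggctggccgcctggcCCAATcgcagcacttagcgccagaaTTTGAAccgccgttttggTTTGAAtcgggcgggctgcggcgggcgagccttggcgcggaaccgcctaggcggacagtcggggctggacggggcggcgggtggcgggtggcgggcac
Top2a: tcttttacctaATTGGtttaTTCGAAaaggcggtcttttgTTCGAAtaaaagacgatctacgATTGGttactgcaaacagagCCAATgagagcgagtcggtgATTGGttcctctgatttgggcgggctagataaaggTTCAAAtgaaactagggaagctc
Cdk1: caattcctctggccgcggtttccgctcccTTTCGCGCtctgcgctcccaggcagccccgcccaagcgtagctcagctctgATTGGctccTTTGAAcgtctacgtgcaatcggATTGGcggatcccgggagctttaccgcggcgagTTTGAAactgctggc
Kif11: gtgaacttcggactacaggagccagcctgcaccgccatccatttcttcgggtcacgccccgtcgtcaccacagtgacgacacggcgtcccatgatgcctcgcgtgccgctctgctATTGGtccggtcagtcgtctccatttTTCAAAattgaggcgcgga
Ube2c: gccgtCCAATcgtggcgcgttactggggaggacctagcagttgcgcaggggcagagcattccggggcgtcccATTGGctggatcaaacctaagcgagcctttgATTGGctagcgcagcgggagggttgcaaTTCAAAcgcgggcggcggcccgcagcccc
Mcm5: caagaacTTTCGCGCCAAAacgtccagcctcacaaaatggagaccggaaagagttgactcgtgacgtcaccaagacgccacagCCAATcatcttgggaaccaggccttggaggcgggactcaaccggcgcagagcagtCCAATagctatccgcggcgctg
Mcm6: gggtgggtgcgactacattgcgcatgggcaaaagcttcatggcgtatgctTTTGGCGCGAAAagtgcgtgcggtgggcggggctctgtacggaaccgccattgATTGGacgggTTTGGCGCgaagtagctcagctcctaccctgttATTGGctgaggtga

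The 5 mitosis promoters above each hold CHR and CCAAT letters, and Cdk1 also holds E2F letters. The Mcm5 and Mcm6 promoters hold E2F and CCAAT letters and no CHR letters in these bases. In both, neighbouring E2F matches overlap each other by 4 letters. Further upstream Mcm5 holds TTTAAA (at -221 from the start), so it is counted below among the replication promoters with CHR letters. Over windows from 250 bases before to 50 after the start, 25 of the 30 mitosis genes and 12 of the 14 replication genes had an entry. Ccna2, Aurkb, Foxm1, Tpx2, Kif20a, Mcm4 and Ccne2 had none. TTTGAA or its complement was in 18 of the 25 mitosis promoters (72.0%), in 1 of the 12 replication promoters (8.33%, Mcm2) and in 20.2% of 27025 genes with an entry. Any of the CHR letters stood in 21 of 25 (84.0%), 6 of 12 replication promoters and 31.9% of all genes. The E2F letters were in 1 of 25 (4.0%, Cdk1), in 4 of 12 (33.3%: Mcm3, Mcm5, Mcm6 and Mcm7) and in 2.6% of all genes. CCAAT was in 17 of 25 (68.0%), 8 of 12 (66.7%) and 41.1%. A match is a description of the letters and not evidence of a bound site.

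Mitosis genes were higher in PE hearts than in untreated hearts of both genotypes, and replication genes differed less. Averaged over the genotypes, the log2 difference (PE minus untreated) had a median of 0.88 over the 30 mitosis genes, with a range from -0.11 to 1.76, and of 0.30 over the 14 replication genes, with a range from 0.06 to 0.82. Over all genes the median was -0.02. Of the 44 members 43 had a difference above 0, against 44% of all genes, and Cenpf did not. By limma with Benjamini-Hochberg adjustment over all genes, 0 of 44 members passed an adjusted p of 0.05, where 0.00502% of all genes passed (the lowest adjusted p of a member was 0.275). The gene that passed was Myh7, a myosin heavy chain of stressed heart muscle, at 2.30 (adjusted p = 0.00808). At an unadjusted p under 0.05, 34 members were higher and 0 lower, against 9.31% of all genes higher and 7.44% lower. These 34 comprised 27 of 30 mitosis genes and 7 of 14 replication genes. In whole tissue, a larger number of dividing cells and more of these RNAs per cell cannot be told apart.

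The 4 PE hearts did not stand equally high. Array 7 was the highest of the 8 for 33 members, array 3 for 10 and array 5 for 1, while the lowest value lay on array 2 for 25 members. Array 3 was above array 4 for 41 members and array 7 above array 8 for all 44, against 46.8% and 44.5% of all genes. Both held for 41 members and for 29% of all genes. Among mitosis genes the median gap was 0.77 between arrays 3 and 4 and 1.20 between arrays 7 and 8, whereas the untreated pairs had median absolute gaps of 0.11 (arrays 1 and 2) and 0.07 (arrays 5 and 6). The lower PE hearts were still mostly above their controls: array 4 exceeded the WT untreated mean by a median of 0.53 over the mitosis genes, and array 8 exceeded the S105A untreated mean by 0.30. Over the replication genes these excesses were 0.18 and 0.06. For 26 members, 22 of them mitosis genes, the lowest PE array exceeded the highest untreated one, against 6.7% of all genes.

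**Figure D1:**
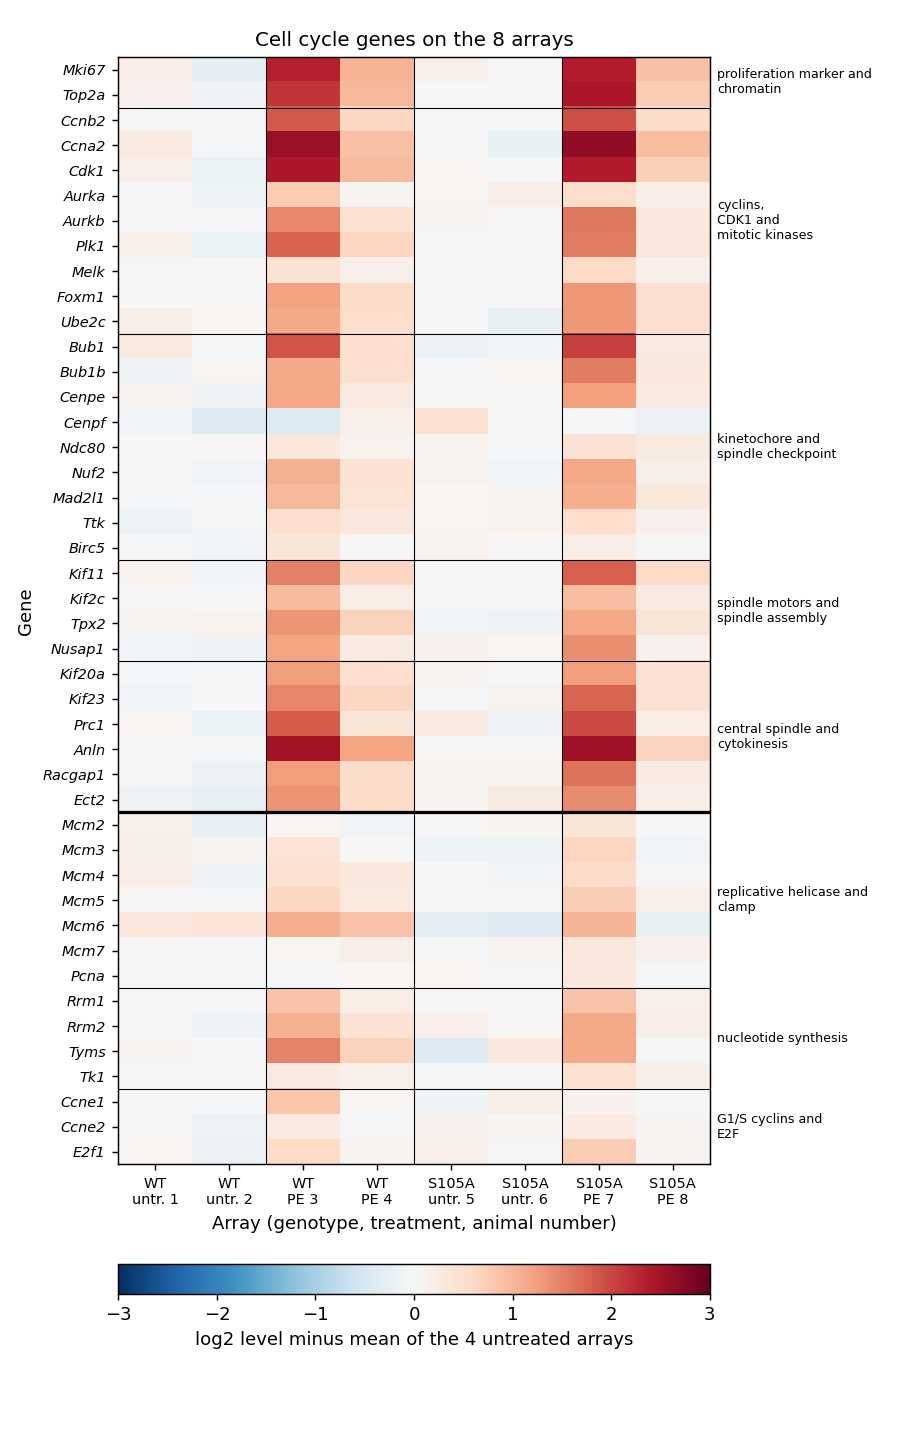
Each row is 1 of the 44 measured genes and each column 1 array, and colour gives the log2 level minus the mean of the 4 untreated arrays, from -3 to 3. Genes are ordered by role, with the thick line between mitosis and replication genes. Arrays 3 and 7 are the most intense columns, arrays 4 and 8 are paler, and Cenpf is the mitosis row that does not share this order.

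Mki67 and Top2a represent chromatin in cycling cells. Mki67 encodes the Ki-67 protein that coats mitotic chromosomes and marks cycling cells. Its log2 level was 6.41 and 5.91 in the WT untreated hearts, 8.54 and 7.24 in the WT PE hearts, 6.36 and 6.15 in the S105A untreated hearts and 8.56 and 7.09 in the S105A PE hearts. Every PE heart was above every untreated heart, with hearts 3 and 7 well above 4 and 8. The difference averaged over genotypes was 1.65 (SE 0.40, 3.14-fold, limma adjusted p = 0.275). Top2a encodes topoisomerase IIα, which untangles DNA before chromosomes separate. Top2a levels were 5.85 and 5.62 in WT untreated, 7.86 and 6.70 in WT PE, 5.73 and 5.67 in S105A untreated and 8.15 and 6.47 in S105A PE. The groups did not overlap, and the order of the hearts was that of Mki67 except that heart 7 was clearly above heart 3. Top2a differed by 1.58 (SE 0.40, 2.99-fold). A second Top2a probe set lay between 3.13 and 3.30 on all 8 arrays and differed by 0.04, and the mean of both differed by 0.81. The lowest value of the whole table was 2.63.

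Cyclins, CDK1 and the mitotic kinases drive entry into mitosis. All 9 measured members of this group were higher with PE at an unadjusted p under 0.05, with a median difference of 0.95. Cdk1, the kinase that starts mitosis, had levels of 6.35 and 6.00 in WT untreated, 8.62 and 7.14 in WT PE, 6.26 and 6.19 in S105A untreated and 8.57 and 6.92 in S105A PE hearts. Its PE and untreated values did not overlap, and hearts 3 and 7 were again the highest. The difference was 1.61 (SE 0.44, 3.06-fold). Ccna2 (cyclin A2), a partner of CDK1 and CDK2, had the largest difference of all 44 members, 1.76 (SE 0.48, 3.40-fold), and Ccnb2 (cyclin B2) differed by 1.24 (SE 0.36). Foxm1, the transcription factor of the G2 programme, was at 5.86 and 5.84 in WT untreated, 7.06 and 6.39 in WT PE, 5.87 and 5.84 in S105A untreated and 7.14 and 6.34 in S105A PE hearts. The 4 untreated hearts lay within a narrow band and all PE hearts above it. Foxm1 differed by 0.88 (SE 0.21, 1.85-fold, limma adjusted p = 0.275).

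Ube2c, the ubiquitin-conjugating enzyme that works with the anaphase-promoting complex, was at 6.09 and 5.98 in WT untreated, 7.06 and 6.45 in WT PE, 5.94 and 5.70 in S105A untreated and 7.23 and 6.42 in S105A PE hearts. The groups were again separate, with a difference of 0.86 (SE 0.21, 1.82-fold). Plk1, a kinase of spindle formation and mitotic exit, differed by 1.07 (SE 0.33) and Aurkb, the kinase of the chromosomal passenger complex, by 0.95 (SE 0.31). Aurka, the centrosomal kinase, and Melk, a kinase of proliferating cells, differed less, by 0.39 (SE 0.16) and 0.34 (SE 0.12). Aurka was the only member of this group whose PE and untreated hearts overlapped: heart 4 was at 6.11 and heart 6 at 6.22.

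**Figure D2:**
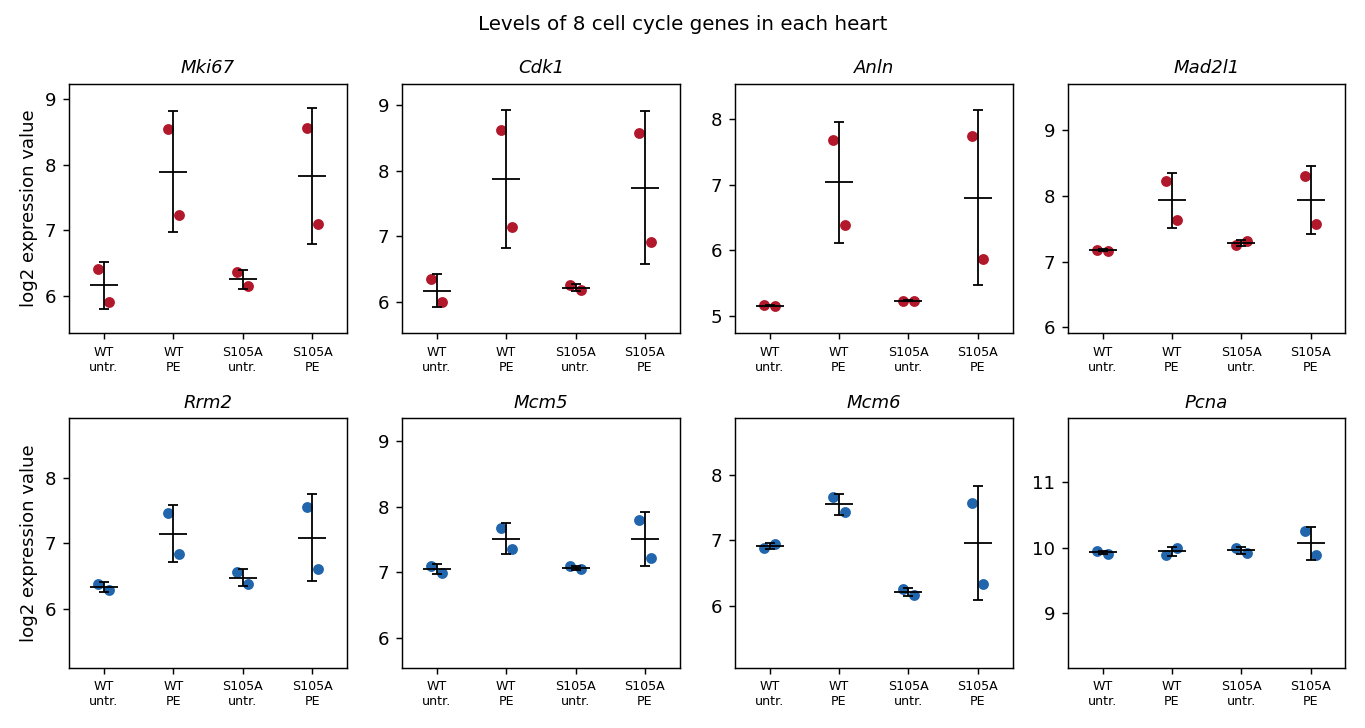
Each panel shows the log2 level of 1 gene in each heart (points), with the mean (horizontal line) and SD (bars) of the 2 hearts per group; all panels span the same number of log2 units. Mki67, Cdk1, Anln and Mad2l1 separate PE from untreated hearts, Rrm2 and Mcm5 do so by less, Mcm6 overlaps because S105A PE heart 8 lies below the WT untreated hearts, and Pcna shows little difference between groups.

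Kinetochore and checkpoint genes couple chromosomes to the spindle. Of the 9 members, 7 were higher at an unadjusted p under 0.05, and the median difference was 0.71. Mad2l1, the checkpoint protein MAD2, was at 7.18 and 7.16 in WT untreated, 8.23 and 7.64 in WT PE, 7.25 and 7.31 in S105A untreated and 8.31 and 7.57 in S105A PE hearts. The groups did not overlap, and the difference was 0.71 (SE 0.19, 1.64-fold). Ttk, the checkpoint kinase MPS1, was at 4.38 and 4.50, 5.03 and 4.86, 4.59 and 4.63, and 5.06 and 4.66 in the same order of groups. Heart 8 lay barely above its controls, and the difference was 0.38 (SE 0.10, 1.30-fold). Ndc80, part of the complex that grips microtubules, was at 5.02 and 5.02 in WT untreated, 5.34 and 5.13 in WT PE, 5.14 and 4.97 in S105A untreated and 5.48 and 5.30 in S105A PE hearts. Heart 4 was level with heart 5, so the groups overlapped over both genotypes but not within each, and the difference was 0.28 (SE 0.08).

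Nuf2, the partner of Ndc80, differed by 0.71 (SE 0.23), Cenpe, a kinetochore motor, by 0.74 (SE 0.26), Bub1b (BUBR1) by 0.88 (SE 0.27) and the checkpoint kinase Bub1 by 1.18 (SE 0.44). Birc5 (survivin), the passenger complex partner of Aurkb, differed by 0.15 (SE 0.10), and its PE and untreated hearts overlapped over both genotypes. Cenpf, a large kinetochore protein that was singled out after its values were seen, was at 6.62 and 6.33 in WT untreated, 6.31 and 6.86 in WT PE, 7.18 and 6.72 in S105A untreated and 6.68 and 6.54 in S105A PE hearts. Heart 3 was the lowest and heart 5 the highest, the WT hearts overlapped, and both S105A PE hearts lay below both S105A controls. Its difference was -0.11 (SE 0.16) and turned positive when array 3 or array 5 was left out. The promoter window of Cenpf holds CHR and CCAAT letters like those of the members that differed more.

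Spindle motors and assembly factors build the bipolar spindle. Kif11, the kinesin that pushes the poles apart, was at 5.67 and 5.47 in WT untreated, 7.06 and 6.17 in WT PE, 5.51 and 5.56 in S105A untreated and 7.33 and 6.13 in S105A PE hearts. The PE hearts were all higher, and the difference was 1.12 (SE 0.29, 2.18-fold). Tpx2, the activator of Aurora A on the spindle, was at 5.56 and 5.59, 6.80 and 6.16, 5.40 and 5.38, and 6.64 and 5.86 in the same order. It had the smallest unadjusted p of the 44 members, with groups that did not overlap and a difference of 0.89 (SE 0.20, 1.85-fold, limma adjusted p = 0.275). Kif2c, a microtubule-depolymerising kinesin, was at 5.00 and 5.02, 5.94 and 5.22, 5.05 and 4.95, and 5.92 and 5.27. Its hearts 4 and 8 were close to the controls yet above them, and the difference was 0.58 (SE 0.19). Nusap1, which bundles spindle microtubules, differed by 0.74 (SE 0.31) and missed the unadjusted threshold.

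The genes of the central spindle and of cytokinesis act last, when the cell is cut apart. All 6 were higher at an unadjusted p under 0.05, with a median difference of 0.99. Anln encodes anillin, the scaffold of the contractile ring. Its levels were 5.16 and 5.15 in WT untreated, 7.68 and 6.38 in WT PE, 5.23 and 5.22 in S105A untreated and 7.74 and 5.86 in S105A PE hearts. The 4 untreated hearts were nearly equal, and the PE hearts spread widely above them. The difference was 1.73 (SE 0.44, 3.31-fold), and the gaps within PE groups were 1.30 (hearts 3 and 4) and 1.87 (hearts 7 and 8). Kif20a, a kinesin of the central spindle, was at 5.74 and 5.77, 7.05 and 6.31, 5.88 and 5.81, and 7.06 and 6.23, a difference of 0.86 (SE 0.22). Kif23, the kinesin of the centralspindlin complex, was at 5.97 and 6.06, 7.49 and 6.66, 5.99 and 6.14, and 7.80 and 6.48, a difference of 1.07 (SE 0.30, 2.10-fold). Both genes kept PE and untreated hearts apart. Racgap1, the partner of Kif23 in centralspindlin, differed by 0.92 (SE 0.31), the microtubule bundler Prc1 by 1.10 (SE 0.45) and Ect2, the activator of RhoA at the cleavage site, by 0.88 (SE 0.29).

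Among the replication genes, the subunits of the MCM2-7 helicase, which unwinds DNA at the fork, did not move alike. Of the 7 genes for the helicase subunits and the clamp, 3 were higher at an unadjusted p under 0.05 (Mcm4, Mcm5 and Mcm6), and the median difference was 0.25. Mcm5 was at 7.10 and 7.00 in WT untreated, 7.68 and 7.35 in WT PE, 7.10 and 7.05 in S105A untreated and 7.80 and 7.22 in S105A PE hearts. It was the only member of this group with no overlap over all 8 hearts, and the difference was 0.45 (SE 0.14, 1.37-fold). Mcm4 was at 7.19 and 6.86, 7.46 and 7.31, 7.01 and 6.92, and 7.57 and 7.02 in the same order. Heart 8 lay below heart 1, and the difference was 0.34 (SE 0.14). Mcm2 was at 7.44 and 7.05 in WT untreated, 7.37 and 7.21 in WT PE, 7.33 and 7.37 in S105A untreated and 7.67 and 7.34 in S105A PE hearts. Its groups overlapped, with a difference of 0.10 (SE 0.11). Mcm3 differed by 0.25 (SE 0.17) and Mcm7 by 0.18 (SE 0.08).

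Pcna encodes the sliding clamp of DNA polymerases, which also serves in DNA repair. It was at 9.94 and 9.91 in WT untreated, 9.89 and 9.997 in WT PE, 10.002 and 9.92 in S105A untreated and 10.25 and 9.89 in S105A PE hearts. Heart 7 stood above the rest and hearts 3 and 8 were level with the lowest controls. The difference was 0.06 (SE 0.09), the smallest of the replication genes.

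The 4 genes of nucleotide synthesis supply DNA precursors, and all were higher at an unadjusted p under 0.05, with a median difference of 0.62. Rrm1 and Rrm2 encode the large and small subunits of ribonucleotide reductase. Rrm1 was at 8.33 and 8.25 in WT untreated, 9.15 and 8.51 in WT PE, 8.28 and 8.30 in S105A untreated and 9.15 and 8.45 in S105A PE hearts. Rrm2 was at 6.38 and 6.28, 7.46 and 6.84, 6.56 and 6.38, and 7.55 and 6.61 in the same order. Both kept the groups apart, although heart 8 was close to its controls. Rrm1 differed by 0.52 (SE 0.19, 1.44-fold) and Rrm2 by 0.71 (SE 0.23, 1.64-fold). Tk1, thymidine kinase of the salvage pathway, was at 6.86 and 6.86, 7.10 and 6.99, 6.79 and 6.83, and 7.30 and 7.00. On this probe set the differences were small but the controls closely spaced, and Tk1 differed by 0.26 (SE 0.08, 1.20-fold). A second Tk1 probe set was at 5.86 and 5.75, 6.33 and 5.97, 6.04 and 5.98, and 6.42 and 5.91. There PE and untreated hearts overlapped, heart 8 lay below both of its controls, and the difference was 0.25. Tyms, thymidylate synthase, differed by 0.82 (SE 0.31), the most of the replication genes, with overlapping hearts in S105A.

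The genes that act at the G1/S boundary differed least clearly, with 0 of 3 at an unadjusted p under 0.05. E2f1, the transcription factor of S phase entry, was at 6.27 and 6.03 in WT untreated, 6.79 and 6.28 in WT PE, 6.35 and 6.17 in S105A untreated and 6.97 and 6.29 in S105A PE hearts. Hearts 4 and 8 were level with the controls, and the difference was 0.38 (SE 0.18). Ccne1 (cyclin E1) was at 6.94 and 6.90, 7.78 and 7.01, 6.83 and 7.13, and 7.09 and 6.96. Heart 3 alone stood out, and the difference was 0.26 (SE 0.17). Ccne2 (cyclin E2) was at 6.18 and 6.09, 6.50 and 6.22, 6.38 and 6.33, and 6.49 and 6.34, which overlapped, with a difference of 0.14 (SE 0.08).

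The study's design asks whether the response to PE depends on the GATA4 serine. In WT hearts all 44 members were above 0 (48.9% of all genes were), with medians of 0.92 for mitosis and 0.37 for replication genes. By limma 0 members passed an adjusted p of 0.05, where 0.00502% of genes did (lowest 0.419), and 18 were higher and 0 lower at an unadjusted p under 0.05, where 5.99% of genes were higher and 5.76% lower. In S105A hearts 43 members were above 0 (43.6% of all genes), with medians of 0.87 and 0.36. By limma 0 members passed, as did 0% of genes (lowest adjusted p of a member 0.765), and 15 were higher and 0 lower at an unadjusted p under 0.05, where 3.09% and 2.77% of genes were. Both WT PE hearts were above both WT controls for 40 members (22.7% of all genes), and both S105A PE hearts above their controls for 33 (20.2%).

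Tested directly, the PE difference in S105A minus that in WT passed an adjusted p of 0.05 by limma for 0 of 44 members (0% of all genes) and an unadjusted p of 0.05 for 0, against 2.42% of all genes. The median of this difference of differences was -0.10 over mitosis genes, with a range from -0.48 to 0.29, and -0.02 over replication genes, with a range from -0.45 to 0.33. For Mki67 the PE difference was 1.73 (SE 0.56) in WT and 1.57 (SE 0.56) in S105A, and the 2 differed by -0.16 (SE 0.79). For Cdk1 the values were 1.70 and 1.52 (each SE 0.62), and for Anln 1.88 and 1.57 (each SE 0.63). Ect2 had the lowest difference of differences among mitosis genes, -0.48 (SE 0.58), and Tyms among replication genes, -0.45 (SE 0.62). The SE of each exceeds the value itself, so at this number of arrays these data do not resolve a genotype dependence of this size. The sign of the mitosis median depended on the PE heart kept: leaving out array 3 or array 8 gave 0.35 or 0.48, and leaving out array 4 or array 7 gave -0.47 or -0.58.

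**Figure D3:**
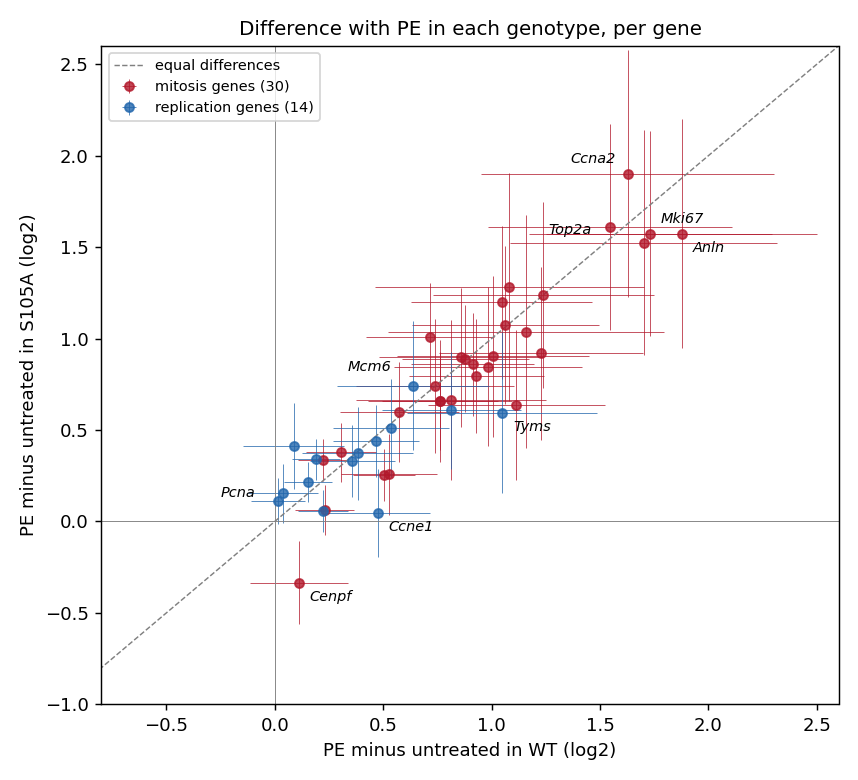
Each point is 1 gene, with the log2 difference between PE and untreated hearts in WT on the horizontal axis and in S105A on the vertical axis, mitosis genes in red and replication genes in blue, and bars showing the SE from limma. The points lie near the line of equal differences, replication genes nearer 0, and the bars are long beside the distances from that line.

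Genotypes were also compared at equal treatment. Without PE, S105A minus WT had medians of 0.05 over mitosis and 0.03 over replication genes, with 0 members at an adjusted p of 0.05 (0% of all genes) and 0 at an unadjusted one (4.96% of all genes). The fit pools the spread of all 4 groups, so this comparison also carries that of the PE hearts. Fitted by limma on only the 4 untreated arrays, 8 members had an unadjusted p under 0.05, against 12.4% of all genes, and 0 an adjusted one. With PE the medians were 0.01 and 0.02, with 0 members at either threshold, against 0% and 2.68% of all genes. Mcm6, a helicase subunit, had the lowest value of the members without PE. It was at 6.88 and 6.94 in WT untreated, 7.66 and 7.43 in WT PE, 6.26 and 6.17 in S105A untreated and 7.57 and 6.34 in S105A PE hearts. Of the S105A hearts, 5, 6 and 8 lay below every WT heart, and heart 7 lay among the WT PE hearts. The untreated difference was -0.70 (SE 0.35, limma adjusted p = 0.967), and with PE it was -0.59 (adjusted p = 0.989). The gap between hearts 7 and 8 enters this SE, which is not the spread of the untreated hearts alone. The PE difference of Mcm6 averaged over genotypes was 0.69 (SE 0.25, 1.61-fold).

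Other cell cycle genes, which are not members, were also read by role in the PE comparison averaged over genotypes. Their counts at an unadjusted p under 0.05 stand against 9.31% of all genes higher and 7.44% lower. Of 39 further mitosis genes measured, 37 were above 0 with a median of 0.44, and 22 were higher and 0 lower at an unadjusted p under 0.05. Among them were Dlgap5 (0.47), a spindle protein, Pbk (0.72), a mitotic kinase, and Iqgap3 (0.53). Pttg1 (0.76) was also among them, although its PE difference was 2.16 in WT and -0.64 in S105A. Of 27 further replication genes, 24 were above 0 with a median of 0.17, and 8 were higher and 0 lower, among them the licensing factor Cdc6 (0.30), DNA ligase Lig1 (0.30), the GINS subunit Gins2 (0.38) and the chromatin assembly factor Chaf1a (0.29). Of 18 G1 cyclins, CDKs and E2F factors, 5 were higher and 1 lower (Tfdp2), with a median of 0.09. Myc differed by 0.73, Cdk6 by 0.60, E2f3 by 0.31, Tfdp2, the partner of E2F factors, by -0.53, and Ccnd1 (cyclin D1) by 0.18 (SE 0.16). Of 16 cell cycle inhibitors, 4 were higher and 2 lower, with a median of 0.09: Gadd45b (0.66), Gadd45g (0.49) and Rbl1 (0.43) were above 0 and Cdkn1c, the inhibitor p57, was at -0.28. The other lower gene was Gadd45a (-0.49), named after its values were seen. Cdkn1a, the inhibitor p21, was not analysed, since its probe set is also annotated with another gene. By limma 0 genes of these 4 lists passed an adjusted p of 0.05 (lowest 0.275).

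Markers of fibroblasts and macrophages, like the mitosis genes, stood highest on arrays 3 and 7. The mitosis mean was highest on array 7 and both marker means on array 3. The mean log2 level of 30 mitosis genes was 5.66 and 5.55 in WT untreated, 6.96 and 6.14 in WT PE, 5.69 and 5.64 in S105A untreated and 7.06 and 6.01 in S105A PE hearts. The mean of 10 fibroblast markers was 9.28 and 9.41, 11.4 and 10.2, 9.25 and 9.29, and 11.1 and 10.3 in the same order. All 10 were above 0 with PE, with a median difference of 1.57. The mean of 10 macrophage markers was 8.06 and 8.29, 9.51 and 8.69, 7.87 and 7.88, and 9.11 and 8.46, and all 10 were above 0 with a median of 0.90. For both lists, as for the mitosis genes, hearts 3 and 7 were the highest, hearts 4 and 8 intermediate and the untreated hearts lowest.

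Of the remaining cell types, the mean of the atrial muscle markers shared this order, and the others did so in part or not at all. Of 8 endothelial markers 1 was above 0, with a median of -0.16 and the lowest mean on array 3 (9.70, against 10.03 to 10.27 on the untreated arrays). Of 8 cardiomyocyte markers 3 were above 0, with a median of -0.13 and the lowest mean, 13.2, also on array 3. T and B lymphocyte markers (6 measured of 8) were at 5.07 on array 3 and 5.08 on array 7 and between 5.25 and 5.34 on the others. The mean of smooth muscle and pericyte markers was highest on array 3 (9.86) and array 7 (9.54). It lay between 9.25 and 9.34 on the other PE arrays and between 9.13 and 9.29 on the untreated ones. Of these 8 markers 5 were above 0 and 3 below, with a median of 0.17. The mean of 6 atrial muscle markers was 7.61 on array 3, 7.48 on array 7, 6.99 on array 4 and 7.23 on array 8. On the untreated arrays it lay between 6.73 and 6.90. Of these 6 markers 3 were above 0 with PE and 3 below, with a median of 0.14 and a highest difference of 2.28. Neutrophil markers stood at 7.08 on array 2 and between 5.22 and 5.61 on the others, and 3 erythroid markers ran from 6.00 on array 3 to 7.10 on array 1. The part of these cell types in the cell cycle values was not tested.

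**Figure D4:**
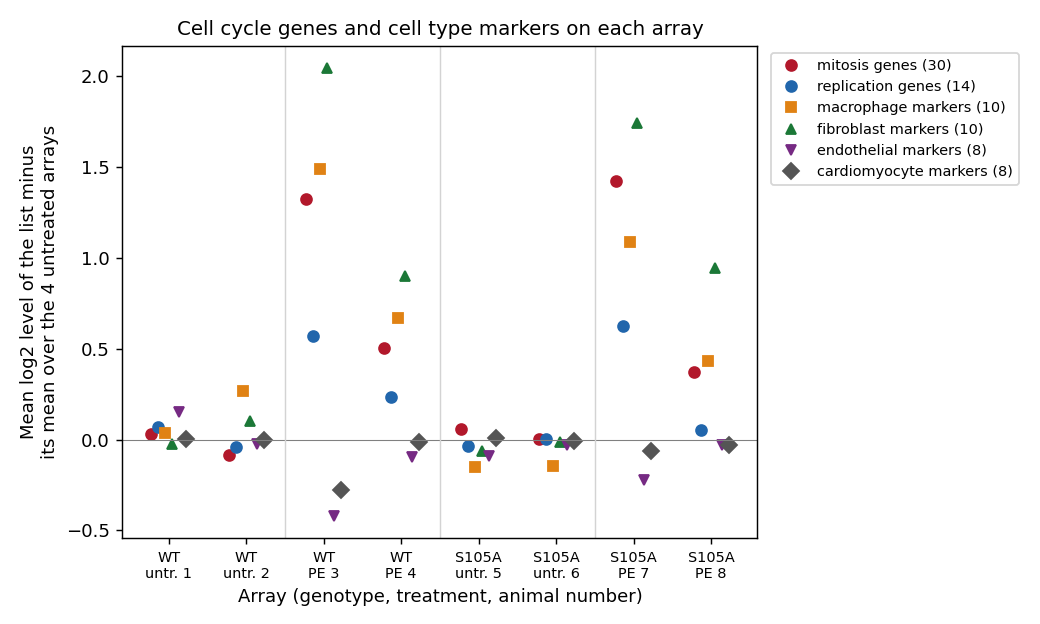
For each array the points give the mean log2 level of a list minus its mean over the 4 untreated arrays. Mitosis, replication, fibroblast and macrophage lists stand highest on arrays 3 and 7 and above 0 on arrays 4 and 8, while endothelial and cardiomyocyte lists lie at or below 0 on the PE arrays.

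Without arrays 3 and 7, which leaves 1 PE heart per genotype, 29 of 30 mitosis genes and 12 of 14 replication genes were above 0, with medians of 0.39 and 0.17. The spread in that fit comes from the untreated hearts alone and is smaller, and 10 mitosis genes and 0 replication genes rose at an adjusted p of 0.05 by limma, among 137 of all genes. They were Anln (0.93, adjusted p = 0.00314), Top2a (0.87, 0.0136), Ccnb2, Tpx2, Foxm1 (0.52, 0.0311), Ccna2, Cdk1 (0.83, 0.0395), Kif11, Kif20a and Kif23. Without array 4, 28 mitosis and 4 replication genes passed, among 4137 of all genes. Leaving out any other array gave 0. A test with 1 PE heart in a group assumes that heart to vary like the others.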

How the data were processed

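The authors deposited log2 values per probe set. RMA is the method named in the submitters' processing notes. It subtracts background, equalises the distributions of the arrays and combines probes, and therefore removes a shift shared by most genes. Its version is not given in the sources used here. The table held 35557 rows. The 21789 probe sets that the platform annotation pairs with 1 symbol were used, not the 1621 with several nor the 12147 without. All 44 measured members matched a RefSeq gene by Entrez identifier, with 0 symbols changed.

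Groups came from the titles, which number 8 individuals. A model with 1 mean per group was fitted to all genes by limma (version 3.58.1, R 4.3.3; lmFit, contrasts.fit, eBayes), which left 4 residual degrees of freedom (prior 2.74, prior SD 0.111). P values are two-sided, with Benjamini-Hochberg adjustment over 19938 genes per contrast. The averaged PE difference is the mean of both genotypes' differences, and comparisons that use the same control hearts are not independent. The fit was also run on simulated data, where genes varied independently and each gene had the same spread in every group. In the real data the PE hearts of a group differed more for the members, and the simulation did not examine that setting. Named genes were a fixed set of cell cycle genes and, per list, those with the smallest p in the averaged contrast. The members, the lists and the rule were chosen with earlier results of these data known. Alternatives removed the 40% of genes lowest on average, averaged probe sets per gene, tested every row, repeated quantile normalization, used a trended robust variance or array weights, fitted only the 4 arrays compared, and left out each array or arrays 3 and 7 together. Figures were drawn with matplotlib 3.10.9.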

Additional observations from a re-analysis of the deposited data

Results flagged for a closer look

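Pttg1, the gene of securin and not a member of the group described above, had PE differences of opposite sign in the genotypes, and the test of their difference did not pass an adjusted p of 0.05. It was at 7.65 and 7.68 in WT untreated, 9.56 and 10.08 in WT PE, 10.26 and 10.38 in S105A untreated and 9.83 and 9.52 in S105A PE hearts. Both WT PE hearts lay above their controls and both S105A PE hearts below theirs. The PE difference was 2.16 in WT and -0.64 in S105A, and the S105A difference minus the WT difference was -2.80 (SE 0.26, limma adjusted p = 0.336). The WT controls were the lowest hearts: without PE, S105A exceeded WT by 2.65 (SE 0.18), with a limma adjusted p that rounds to 0.05 and did not pass.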

How the results depend on the processing

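No paired analysis was possible because the groups share no replicate numbers. Over the alternatives, the medians of the mitosis and replication genes with PE stayed above 0. With 1 array left out they were 0.65 to 1.13 for mitosis and 0.21 to 0.45 for replication genes, and leaving out arrays 3 and 7 gave 0.39 and 0.17. The count of members at an adjusted p of 0.05 was 0 to 18 in WT and 0 to 32 averaged over genotypes when 1 array was left out, the higher counts without array 4, where 3541 and 4137 of all genes passed, and 2 and 10 without arrays 3 and 7; it was 0 in S105A under every alternative run. With 1 array left out, members at an unadjusted p under 0.05 numbered 1 to 36 in WT (18 with all arrays; 1 without array 1, 2 or 3, and 36 without array 4), while the share of all genes was 11.7% with all arrays, 4.76% to 5.45% without array 1, 2 or 3 and 30.9% without array 4. They numbered 0 to 38 in S105A (15 with all; 0 without array 6 or 7, and 38 without array 8, where 3.19%, 1.9% and 10% of all genes passed) and 19 to 39 averaged (34 with all; 19 without array 2 and 39 without array 4, where 8.95% and 32.8% of all genes passed). Removing the 40% of genes with the lowest mean keeps 14 of 30 mitosis genes and all 14 replication genes. Among the members kept, these counts were 8 in WT, 9 in S105A and 20 averaged. The shares of all genes kept were 13.8%, 5.22% and 20.3%. Array weights gave 28 in S105A (10.2% of all genes). For the difference of PE differences the unadjusted count was 0 under every alternative that kept all 8 arrays, where 1.75% to 3.38% of all genes passed. It moved in some fits with arrays left out, each of which leaves a group with 1 heart. For S105A against WT without PE the unadjusted count was 3 with array weights and 8 with only the 4 arrays compared. There 11.4% and 12.4% of all genes passed, against 4.96% in the fit reported. The other alternatives on all 8 arrays gave 0, and the count moved in some fits with arrays left out. For S105A against WT with PE it was 0 to 4 with 1 array left out and 5 without arrays 3 and 7 (4.8% of all genes), and 0 to 1 at the adjusted threshold (Ccne1, without array 4, where 711 of all genes passed). With 1 array left out Pcna ran from -0.0254 (without array 7) to 0.153 (without array 8) and Mcm2 from -0.00206 (without array 2) to 0.192 (without array 1), and Mcm2 was at -0.025 without arrays 3 and 7. Where removing an array leaves a group with 1 heart, that heart adds nothing to the estimated spread, and the cause of the other changes was not tested. Many mitosis genes lie at low signal, where no background level was used to bound them.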
